A study of Homo sapiens with 4 samples.

Results

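The 96 genes described here encode the pore-forming and auxiliary subunits of potassium channels. They were taken from the 19314 genes listed by their symbols alone, as every gene whose symbol starts with KCN, further letters and a number. Expression was measured by RNA sequencing in U87, a human malignant glioma cell line, in 2 libraries labelled PTP2 and 2 libraries labelled SCR. PTP2 libraries carry the genotype PTPRN knockdown and SCR libraries the genotype SCR, the control. PTPRN encodes a receptor-type tyrosine phosphatase of dense-core vesicles, and the study lowered it with short hairpin RNAs delivered in lentiviral vectors. The labels do not say which hairpin the PTP2 libraries carry, and they give no age of the cultures and no time after infection. No label says that the libraries of a group came from separate cultures, so p-values measure the spread between these libraries, which may be technical. The comparison of PTP2 with SCR asks which genes differ when PTPRN is lowered.

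Potassium channels let potassium ions leave or enter a cell along their gradient and so set its membrane voltage and volume. Voltage-gated channels open when the membrane depolarizes, calcium-activated channels open when calcium rises in the cell, inward rectifiers carry current best near the resting voltage, and two-pore channels carry a steady leak. Auxiliary subunits bind the pore and change its gating or its transport to the membrane. In glioma cells, the large-conductance calcium-activated channel, called BK, and the intermediate-conductance channel encoded by KCNN4 are known for their part in volume changes and migration.

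Levels are given as FPKM, the fragments of a gene scaled by transcript length and sequencing depth, so that levels can be compared between genes per length. The authors rounded FPKM to 2 decimals and gave no read counts. The estimated depth was between 18120000 and 19680000 reads per library. PTPRN itself had 12.09 and 11.68 FPKM in PTP2 and 84.84 and 85.02 FPKM in SCR, a log2 fold change of -2.74 ± 0.03 (SE; limma with Benjamini-Hochberg adjustment, adjusted p = 1.48e-04). The growth protocol recorded with the samples names hCMEC/D3, a brain endothelial line, where the labels name U87. Of 12 endothelial markers, CDH5 and CLDN5 were at or below 0.03 FPKM in every library and EGFL7 had no value, while PECAM1 had between 1.21 and 2.50 FPKM, TEK between 0.45 and 1.08 FPKM, and VWF, ERG and KDR reached 0.98, 0.94 and 0.87 FPKM. VIM, which glioma lines express strongly, had 4766.13 and 4564.5 FPKM in PTP2 and 1997.7 and 1918.05 FPKM in SCR. Of 7 glioma markers, GFAP did not pass 0.55 FPKM and S100B did not pass 0.05 FPKM, so these astrocyte markers were near 0. CD44 had 315.84 and 313.53 FPKM in PTP2 and 151.78 and 151.56 FPKM in SCR. NES had 3.12 and 3.39 FPKM in PTP2 and 12.96 and 14.24 FPKM in SCR. SOX9 had 2.84 and 2.74 FPKM in PTP2 and 10.54 and 10.14 FPKM in SCR. VIM, CD44 and FABP7 were called higher, and NES, SOX9 and GFAP lower. Of the genes in the region deleted in U87, CDKN2A was at or below 0.05 FPKM, CDKN2B had no value and MTAP had between 0.19 and 0.34 FPKM.

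Most potassium channel genes were weakly expressed or had no value. Of the 96 genes, 16 had no value in any library, 45 had a mean over the 4 libraries below 0.1 FPKM, 21 had a mean from 0.1 to below 1 FPKM and 14 had a mean of at least 1 FPKM. The 14 genes are 14.6% of those listed, while 58.4% of all listed genes reached a mean of 1 FPKM. The median of the mean level was 0.0575 FPKM over the 80 genes with a value and 5.26 FPKM over all 16595 genes with a value. Of the 45 genes below 0.1 FPKM, 44 had fewer than 10 estimated reads in every library, so differences among them were not detectable at this depth unless large. The 16 genes with no value were KCNA5, KCNB2, KCNC2, KCND3, KCNE1B, KCNH5, KCNIP1, KCNJ6, KCNJ9, KCNK5, KCNK9, KCNK16, KCNK17, KCNK18, KCNMB1 and KCNU1.

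**Figure D1:**
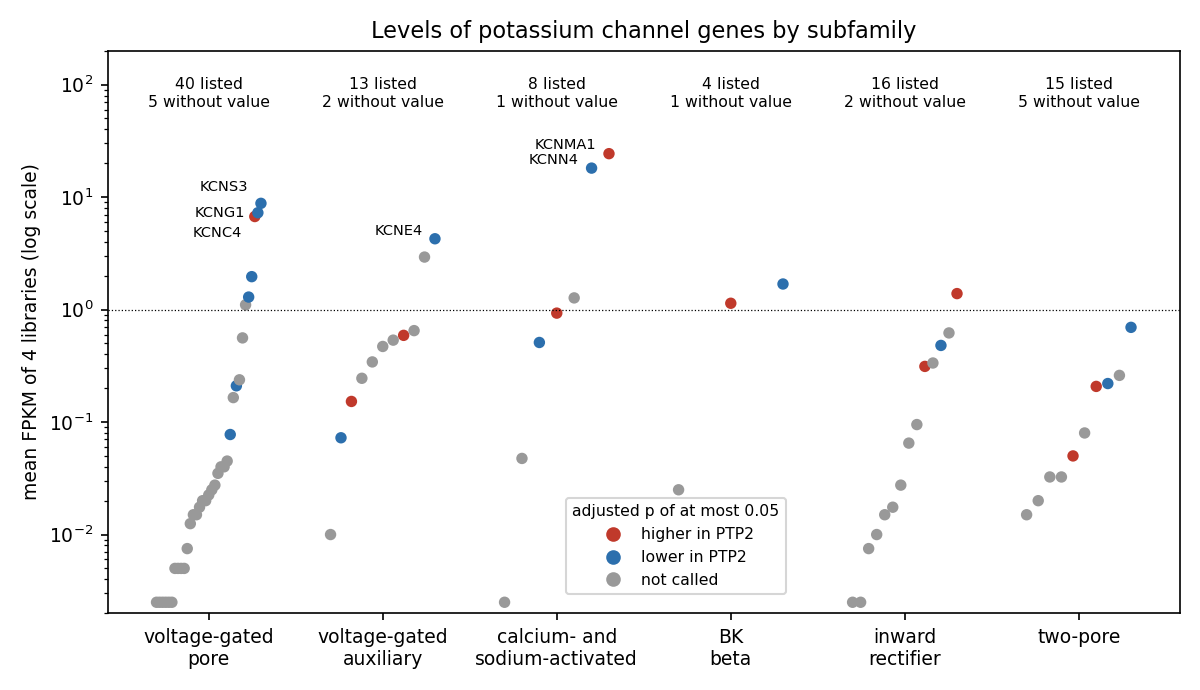
Mean FPKM over the 4 libraries on a log axis for each of the 80 potassium channel genes with a value, by subfamily, with the number listed and the number without a value above each column. Each point is a gene, colored by its call in PTP2 against SCR, and the dotted line marks 1 FPKM, which 14 genes reach.

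The expressed potassium channel genes were few and unevenly distributed. KCNMA1 and KCNN4 together held 50.3% and 48.9% of the summed FPKM of the potassium channel genes in PTP2, and 43.4% and 42.7% in SCR. The 10 most abundant genes held between 83.2% and 85.1% of that sum in each library. The 10 were, from the highest mean down, KCNMA1, KCNN4, KCNS3, KCNG1, KCNC4, KCNE4, KCNAB2, KCND1, KCNMB4 and KCNJ15. The mean levels of KCNG1 (7.26 FPKM) and KCNC4 (6.72 FPKM) lay close together, but their order differed between the groups, with KCNC4 above KCNG1 in both PTP2 libraries and below it in both SCR libraries.

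Between the groups, 10 potassium channel genes rose in PTP2 and 14 fell when genes were called at an adjusted p up to 0.05, while 56 did not pass the test. The share called was 30.0% of the 80 genes tested. Over all 16595 genes tested it was 57.9%, with 30.8% higher and 27.1% lower in PTP2. This share depended on level, since 74.6% of all genes with a mean of at least 1 FPKM were called, against 40.9% of those from 0.1 to below 1 FPKM and 4.62% of those below 0.1 FPKM. Among the 14 potassium channel genes at 1 FPKM or more, 4 rose and 7 fell (78.6%), beside 41.1% higher and 33.5% lower over all genes of that level. Their median log2 fold change was -0.22, beside 0.06 over all genes of that level. In bulk samples, fewer cells of a type and less RNA per cell cannot be told apart.

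The study states stricter thresholds, a fold change of 2 or more with an adjusted p up to 0.001. With the fold taken on the log2(FPKM + 1) scale, 1 potassium channel gene rose past them (KCNN3) and 4 fell (KCNMB4, KCNS1, KCND1 and KCNG1). KCNE4 did not pass on that scale, although its mean FPKM in SCR was 2.15 times that in PTP2 (limma, adjusted p = 6.43e-04). Over all genes tested, 2.63% rose and 4.06% fell past these thresholds, 6.69% in all, and 9.57% of genes with a mean of at least 1 FPKM passed them in either direction. The values of PTP2 and SCR did not overlap for 44 of the 80 genes, 22 higher in each group, while 75.6% of all genes tested did not overlap. With 2 libraries against 2, an exact permutation test cannot go below a two-sided p of 0.333, so the calls rest on limma, which moderates each gene's spread with that of all genes. When 1 library was left out, whichever it was, no gene passed the stricter thresholds and fewer of all genes were called at 0.05. Calls were thus lost in such fits over all genes, although some genes kept theirs, and the cause was not tested. Fewer potassium channel genes were called at 0.05 as well. Of these genes, KCNJ15 and KCNN3, both higher, and KCND1, KCNE4, KCNG1, KCNH1, KCNMB4 and KCNS1, all lower, were called without each of the 4 libraries. How many of all genes kept their call in this way was not counted.

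**Figure D2:**
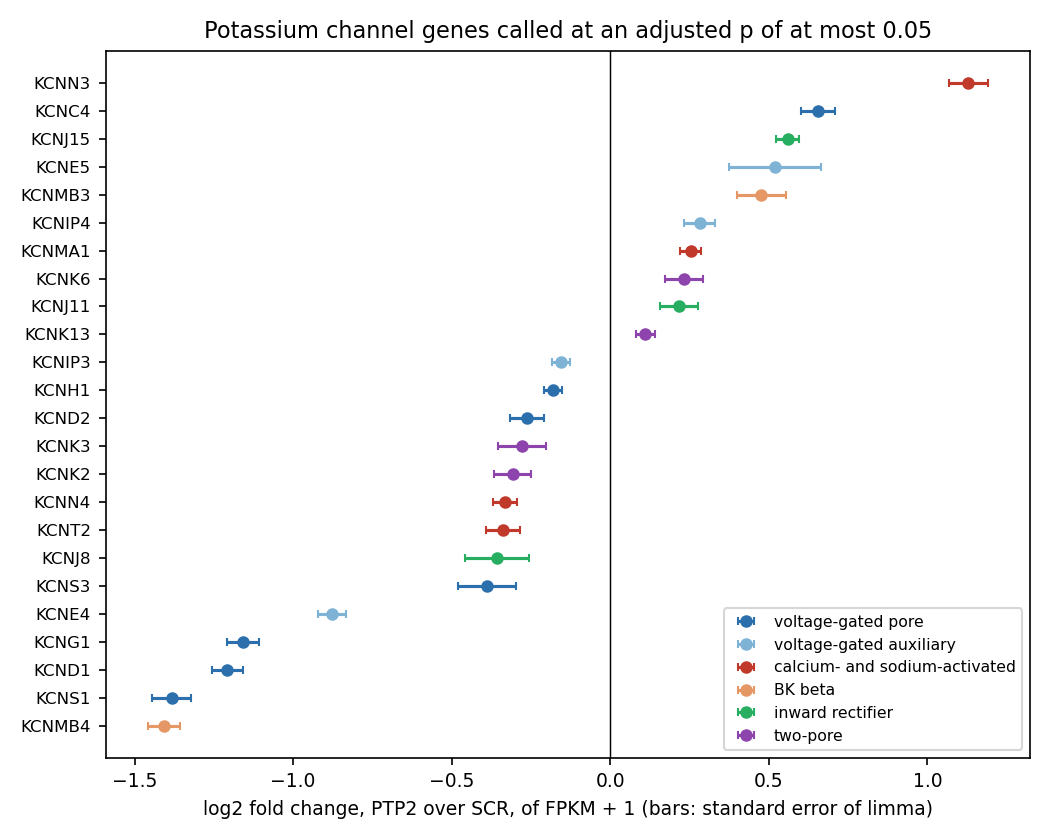
Log2 fold change of PTP2 over SCR, on the log2(FPKM + 1) scale, for the 24 potassium channel genes called at an adjusted p of at most 0.05, with bars for the standard error from limma and colors for the subfamily. The 10 genes right of 0 were higher in PTP2 and the 14 left of it lower, from 1.13 for KCNN3 to -1.41 for KCNMB4.

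The calcium-activated and sodium-activated pore genes were the most abundant subfamily and held a larger share of the sum in PTP2. Their summed level was 45.57 and 45.95 FPKM in PTP2 and 44.50 and 44.72 FPKM in SCR, that is 54.0% and 52.9% of the potassium channel sum against 45.5% and 45.1%. Of the 7 genes with a value in this subfamily, 2 rose, 2 fell and 3 did not pass the test. The share called was 57.1%, beside 57.9% of all genes. KCNMA1, on chr10:76869601-77637819, encodes the pore of the BK channel and was the highest potassium channel gene. It had 26.38 and 26.71 FPKM in PTP2 and 21.72 and 22.50 FPKM in SCR. Both PTP2 libraries lay above both SCR libraries, with a log2 fold change of 0.25 ± 0.03 (SE, adjusted p = 0.00608). Without PTP2 replicate 1 or PTP2 replicate 2 the adjusted p was 0.0572 or 0.0618.

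KCNN4, which encodes the intermediate-conductance channel, changed the other way. It had 16.10 and 15.72 FPKM in PTP2 and 20.74 and 19.83 FPKM in SCR. The groups did not overlap, and the log2 fold change was -0.33 ± 0.04 (SE, adjusted p = 0.00402). Without PTP2 replicate 1 or 2 the adjusted p was 0.0517 or 0.0575. The ratio of KCNMA1 to KCNN4 was 164% and 170% in PTP2 and 105% and 113% in SCR.

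KCNN3, which encodes a small-conductance calcium-activated channel, rose more than any other potassium channel gene on the log2(FPKM + 1) scale. It lies on chr1:154697455-154870278 and had 1.52 and 1.78 FPKM in PTP2 and 0.19 and 0.23 FPKM in SCR. Its mean in PTP2 was 7.86 times that in SCR, and the log2 fold change on the scale with the pseudocount was 1.13 ± 0.06 (SE, adjusted p = 7.52e-04). The ratio of KCNN3 to KCNN4 was 9.44% and 11.3% in PTP2 and 0.916% and 1.16% in SCR. Its family member KCNN2 did not pass the test, with 1.26 and 1.33 FPKM in PTP2 and 1.12 and 1.37 FPKM in SCR. KCNT2, a sodium-activated channel gene, fell from 0.71 and 0.66 FPKM in SCR to 0.28 and 0.39 FPKM in PTP2, with a log2 fold change of -0.34 (adjusted p = 0.0102). Its call was lost without SCR replicate 1 (adjusted p = 0.125) or SCR replicate 2 (adjusted p = 0.106).

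The RefSeq promoter windows below run from 250 bases before to 50 bases after a start, on GRCh38.p14, and are shown for KCNN3 because it rose most and for KCNMA1 because it was the most abundant. The capitals mark the letters TGANTCA, with N any base. In the windows of KCNN3 and KCNMA1 they read TGAGTCA, a site that AP-1 factors are known to bind. Of the windows of each gene, the 1 that holds these letters is shown, and both windows belong to starts inside the gene rather than to its outermost start. KCNN3 has 3 windows and the 1 shown is chr1:154859827-154860126 on the minus strand, with the site starting 27 bases before the start. KCNMA1 has 2 windows and the 1 shown is chr10:77350712-77351011 on the minus strand, with sites starting 134 and 122 bases before it.
KCNN3: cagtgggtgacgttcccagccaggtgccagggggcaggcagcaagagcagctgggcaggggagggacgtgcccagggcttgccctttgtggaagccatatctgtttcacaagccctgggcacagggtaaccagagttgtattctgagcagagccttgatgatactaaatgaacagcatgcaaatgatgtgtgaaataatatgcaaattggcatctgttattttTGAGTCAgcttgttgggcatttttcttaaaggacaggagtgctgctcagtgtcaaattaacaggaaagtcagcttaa
KCNMA1: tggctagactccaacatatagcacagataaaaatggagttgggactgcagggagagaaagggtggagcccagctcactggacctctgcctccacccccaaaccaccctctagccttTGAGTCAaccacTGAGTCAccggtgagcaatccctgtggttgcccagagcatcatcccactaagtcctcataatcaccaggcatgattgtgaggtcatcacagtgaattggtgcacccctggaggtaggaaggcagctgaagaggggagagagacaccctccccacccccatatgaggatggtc

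The BK channel also takes beta subunits, which change its calcium sensitivity and its gating. KCNMB4, on chr12:70366282-70434292, had 0.46 and 0.48 FPKM in PTP2 and 3.06 and 2.75 FPKM in SCR. It fell more than any other potassium channel gene on the log2(FPKM + 1) scale, by 1.41 ± 0.05 (SE, adjusted p = 4.10e-04), and its mean in SCR was 6.18 times that in PTP2. The ratio of KCNMB4 to KCNMA1 was 1.74% and 1.80% in PTP2 and 14.1% and 12.2% in SCR. KCNMB3 had 1.66 and 1.32 FPKM in PTP2 and 0.80 and 0.77 FPKM in SCR, with no overlap and a log2 fold change of 0.48 ± 0.08 (SE, adjusted p = 0.0108). Its value is uncertain, since 3403 of its exon bases overlap PIK3CA and that gene runs in the other direction, while whether counting used strand is not given in the sources used here. PIK3CA had 6.34 and 6.17 FPKM in PTP2 and 4.79 and 5.14 FPKM in SCR, and its part in the value of KCNMB3 was not tested. Without SCR replicate 1 or 2 the adjusted p of KCNMB3 was 0.133 or 0.141. Exon bases shared with an antisense gene number 434 for KCNG1 and 419 for KCNMA1, and those shared with a gene on the same strand 125 for KCNJ15 and 78 for KCNE5.

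The voltage-gated pore genes were the largest subfamily. Of 40 listed genes, 35 had a value, 6 had a mean of at least 1 FPKM, 1 rose and 6 fell. Their summed level was 22.74 and 24.40 FPKM in PTP2 and 33.08 and 34.82 FPKM in SCR, 0.694 times as high in PTP2. The electrically silent subunits, those of the KCNF, KCNG, KCNS and KCNV groups, form no channel alone and assemble with conducting subunits. Their sum was 11.85 and 12.78 FPKM in PTP2 and 22.39 and 23.90 FPKM in SCR, 0.532 times as high in PTP2. The conducting subunits summed to 10.89 and 11.62 FPKM in PTP2 and 10.69 and 10.92 FPKM in SCR. Of the 10 silent subunit genes tested 3 fell and 0 rose, and of the 25 conducting ones 3 fell and 1 rose. Over all genes 27.1% were lower and 30.8% higher, but this share depended on level. Of the 10 silent genes, 6 had a mean below 0.1 FPKM, where 4.62% of all genes were called. The 3 at 1 FPKM or more were the 3 that fell, beside 33.5% lower over all genes of that level. So few genes do not allow a comparison of shares.

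**Figure D3:**
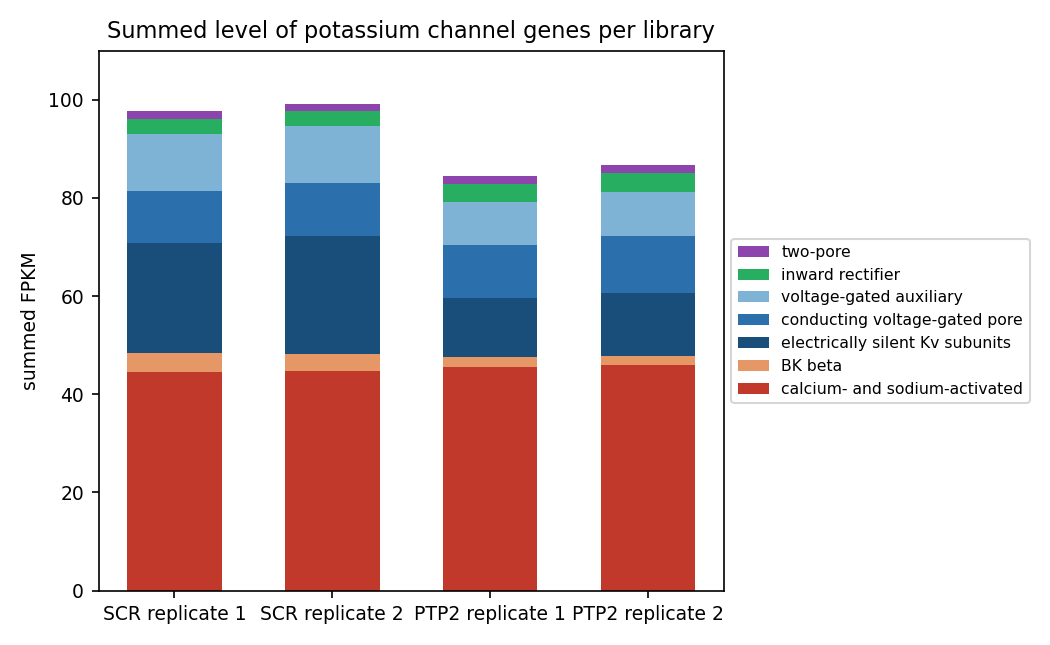
Summed FPKM of the potassium channel genes in each library, stacked by subfamily, with the voltage-gated pore genes divided into conducting and electrically silent subunits. The sum was 97.75 and 99.19 FPKM in SCR and 84.43 and 86.81 FPKM in PTP2, and the block of silent subunits is smaller in both PTP2 libraries.

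KCNG1, on chr20:51003656-51023138, was one of the silent subunits that fell. It had 4.23 and 3.99 FPKM in PTP2 and 10.05 and 10.76 FPKM in SCR. The groups were far apart, with a log2 fold change of -1.16 ± 0.05 (SE, adjusted p = 5.19e-04). KCNS1, on chr20:45091214-45101112, had 0.24 and 0.30 FPKM in PTP2 and 2.47 and 2.16 FPKM in SCR. Its mean in SCR was 8.57 times that in PTP2, with a log2 fold change of -1.38 ± 0.06 (SE, adjusted p = 5.51e-04). KCNS3, the most abundant silent subunit gene, had 6.96 and 8.02 FPKM in PTP2 and 9.50 and 10.72 FPKM in SCR. It passed the test with a log2 fold change of -0.39 ± 0.09 (SE, adjusted p = 0.0298), but not when any 1 library was left out (adjusted p from 0.0969 to 0.206) or with a pseudocount of 0.1 (adjusted p = 0.0514).

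Among the conducting subunits, KCNC4 rose and KCND1, a channel of the transient A-type current, fell. KCNC4, on chr1:110210714-110234052, had 8.04 and 8.85 FPKM in PTP2 and 5.02 and 4.96 FPKM in SCR. Both PTP2 libraries were higher, with a log2 fold change of 0.66 ± 0.05 (SE, adjusted p = 0.00175), and without SCR replicate 1 or 2 the adjusted p was 0.0555 or 0.0565. The voltage-gated genes that follow it on chromosome 1, KCNA10, KCNA2 and KCNA3, had means of 0.02 FPKM or less and did not pass the test. KCND1, on chrX:48961378-48971844, had 0.74 and 0.84 FPKM in PTP2 and 3.03 and 3.24 FPKM in SCR, with a log2 fold change of -1.21 ± 0.05 (SE, adjusted p = 4.70e-04). The ratio of KCND1 to KCNC4 was 9.20% and 9.49% in PTP2 and 60.4% and 65.3% in SCR. KCND2, of the same A-type group, had 0.12 and 0.08 FPKM in PTP2 and 0.27 and 0.37 FPKM in SCR, with a log2 fold change of -0.26 (adjusted p = 0.0188), which did not hold when any 1 library was left out (adjusted p from 0.0526 to 0.151).

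KCND1 and KCNN3 were the 2 of the 5 genes past the stricter thresholds with a RefSeq promoter window. The window of KCND1, chrX:48971795-48972094 on the minus strand, is shown with the letters CCAAT or their reverse complement ATTGG in capitals, which start 187 bases before the start. The windows printed for KCNN3, KCNMA1 and KCNJ15 hold ATTGG too, but it is not marked there.
KCND1: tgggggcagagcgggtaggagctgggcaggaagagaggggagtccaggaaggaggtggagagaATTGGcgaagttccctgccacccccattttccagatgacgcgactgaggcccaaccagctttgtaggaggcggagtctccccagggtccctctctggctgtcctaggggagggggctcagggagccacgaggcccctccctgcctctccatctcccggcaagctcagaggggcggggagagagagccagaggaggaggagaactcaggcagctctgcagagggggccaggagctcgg

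KCNH1, a voltage-gated channel gene often studied in tumors, had 0.01 FPKM in each PTP2 library and 0.14 and 0.15 FPKM in SCR. It passed the test with a log2 fold change of -0.18 (adjusted p = 0.00947). Its level in SCR corresponds to about 22 estimated reads per library. KCNH1 shares 3618 exon bases with a transcript on the opposite strand and 1582 and 387 with annotated genes on its own strand, so its value is uncertain. KCNH2 was listed at 0 in 3 of the 4 libraries and at 0.02 FPKM in the other. KCNA3 was listed at 0 in 3 of the 4 libraries and at 0.02 FPKM in PTP2 replicate 2. KCNQ3, an M-current channel gene, had 1.00 and 1.05 FPKM in PTP2 and 1.20 and 1.16 FPKM in SCR and did not pass the test (adjusted p = 0.0567).

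The auxiliary subunits of voltage-gated channels summed to 8.84 and 9.08 FPKM in PTP2 and 11.61 and 11.51 FPKM in SCR. Of the 11 genes with a value, 2 rose and 2 fell (36.4%), beside 57.9% of all genes called. KCNE4, a single-span subunit that inhibits several voltage-gated channels, lies on chr2:223051930-223055637 and had 2.60 and 2.82 FPKM in PTP2 and 5.89 and 5.74 FPKM in SCR. The groups did not overlap, and the log2 fold change was -0.88 ± 0.04 (SE, adjusted p = 6.43e-04). KCNAB2, the most abundant beta subunit gene of voltage-gated channels, had 2.89 and 2.95 FPKM in PTP2 and 2.89 and 2.99 FPKM in SCR, with a log2 fold change of -0.01 ± 0.03 (SE, adjusted p = 0.866). KCNAB3 did not pass the test either, with 0.69 and 0.70 FPKM in PTP2 and 0.49 and 0.72 FPKM in SCR. The remaining called subunits were weakly expressed. KCNIP4 rose to 0.31 and 0.22 FPKM in PTP2 from 0.05 and 0.03 FPKM in SCR and lost its call without SCR replicate 1 (adjusted p = 0.114) or 2 (adjusted p = 0.127). KCNIP3 had 0.02 and 0.01 FPKM in PTP2 and 0.13 FPKM in each SCR library, and its call was lost without PTP2 replicate 2. The values of KCNIP3 correspond to about 1 and 0.5 estimated reads in PTP2 and about 7 in each SCR library. KCNE5 rose with an adjusted p of 0.0458 but was not called when any 1 library was left out. With all 4 libraries, KCNE5 was not called with a pseudocount of 0.1 (limma, adjusted p = 0.0965) or with that pseudocount and the eBayes trend (0.071).

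The inward rectifiers had 1 gene with a mean of at least 1 FPKM among 16 listed. Their sum was 3.65 and 3.85 FPKM in PTP2 and 2.94 and 3.07 FPKM in SCR, 1.25 times as high in PTP2. Of 14 genes with a value 2 rose and 1 fell (21.4%), beside 57.9% of all genes. A mean below 0.1 FPKM, a level at which 4.62% of all genes were called, was found for 9 of the 14. KCNJ15, on chr21:38229915-38301826, held the largest part of this sum. It had 1.83 and 1.86 FPKM in PTP2 and 0.89 and 0.97 FPKM in SCR, with no overlap and a log2 fold change of 0.56 ± 0.04 (SE, adjusted p = 0.00103). KCNJ10, the main inward rectifier of normal astrocytes, had 0.04 and 0.03 FPKM in PTP2 and was listed at 0 in SCR. KCNJ2, a strong inward rectifier gene, had 0.04 and 0.05 FPKM in PTP2 and 0.01 FPKM in each SCR library, and neither passed the test. Both were called higher with a pseudocount of 0.1 (adjusted p = 0.0113 for KCNJ10 and 0.0124 for KCNJ2) and with that pseudocount and the eBayes trend (0.0374 and 0.0467). The highest library had 3.8 estimated reads for KCNJ10 and 4.8 for KCNJ2. KCNJ5, the G-protein-gated subunit gene that was next highest, had 0.62 and 0.77 FPKM in PTP2 and 0.47 and 0.62 FPKM in SCR. It also did not pass the test.

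KCNJ8 and KCNJ11 encode the pore subunits of ATP-sensitive potassium channels, which assemble with the sulphonylurea receptors ABCC8 and ABCC9. KCNJ11 had 0.38 and 0.44 FPKM in PTP2 and 0.27 and 0.16 FPKM in SCR (adjusted p = 0.0450). KCNJ8 had 0.26 and 0.33 FPKM in PTP2 and 0.81 and 0.52 FPKM in SCR (adjusted p = 0.0468). The call of KCNJ11 was lost without each of the 4 libraries, and that of KCNJ8 without PTP2 replicate 1, PTP2 replicate 2 or SCR replicate 1. With all 4 libraries, both calls were lost with a pseudocount of 0.1 (limma, adjusted p = 0.0707 for KCNJ11 and 0.0521 for KCNJ8). The same held with the replicate number as a block (0.093 and 0.087). KCNJ11 also lost its call under median-ratio scaling (0.051) and with the pseudocount of 0.1 and the eBayes trend (0.0641). KCNJ8 also lost its call under quantile normalization (0.0668). Their partner ABCC9 rose, with 13.23 and 13.37 FPKM in PTP2 and 6.63 and 6.78 FPKM in SCR, a log2 fold change of 0.89 (adjusted p = 3.79e-04). ABCC8 had no value.

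The RefSeq promoter window of KCNJ15, chr21:38272258-38272557 on the plus strand, is shown because KCNJ15 was the only inward rectifier called without each library. Like those of KCNN3 and KCNMA1, this window was taken from among windows that hold the AP-1 letters. It is the 1 window matched and also belongs to a start inside the gene. The AP-1 letters in capitals start 35 bases before the start.
KCNJ15: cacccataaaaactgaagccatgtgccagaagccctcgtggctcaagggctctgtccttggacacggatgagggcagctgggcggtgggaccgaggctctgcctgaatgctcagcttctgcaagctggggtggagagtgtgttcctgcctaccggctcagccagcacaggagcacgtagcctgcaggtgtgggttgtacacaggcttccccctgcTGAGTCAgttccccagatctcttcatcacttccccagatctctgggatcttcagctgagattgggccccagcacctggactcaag

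Promoter windows were matched for 72 of the 96 potassium channel genes, 110 windows in all. The letters TGANTCA occurred in at least 1 window of 5 of the 9 genes higher in PTP2 that have one (KCNIP4, KCNJ15, KCNMA1, KCNMB3 and KCNN3), in 0 of the 10 lower genes and in 4 of the 41 genes that did not pass the test. Over all genes with a window they occurred in 8.07%, in 7.14% of all genes higher and in 8.23% of all genes lower. All promoter windows held them in 7.71%. The genes higher had 16 windows and the lower genes 12, so the former had more chances of a match. Another 4 motifs were searched on both strands, and these 5 searches were chosen after the values were seen. CCAAT occurred in 5 of 9 higher and 4 of 10 lower genes (42.4% of all genes), TATAAA in 1 of 9 and 1 of 10 (12.3%), CACGTG in 0 of 9 and 2 of 10 (11.0%), and TGACGTCA in 0 of 9 and 0 of 10 (3.06%). A match describes letters in a window and not the binding of a factor. The TGANTCA match of KCNIP4 read TGATTCA, and those of KCNJ15, KCNMA1, KCNMB3 and KCNN3 read TGAGTCA.

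The two-pore channels had no gene with a mean of 1 FPKM. Of 15 listed genes 5 had no value, and of the 10 with a value 2 rose and 2 fell, beside 57.9% of all genes called. A mean below 0.1 FPKM, where 4.62% of all genes were called, was found for 6 of the 10. The sum of the two-pore genes was 1.51 and 1.69 FPKM in PTP2 and 1.72 and 1.53 FPKM in SCR, with no separation between groups. KCNK3, an acid-sensitive leak channel gene and the highest of them, had 0.51 and 0.55 FPKM in PTP2 and 0.74 and 0.98 FPKM in SCR, a log2 fold change of -0.28 ± 0.08 (SE, adjusted p = 0.0418). Its call was lost without PTP2 replicate 1, PTP2 replicate 2 or SCR replicate 2. With all 4 libraries, its call was lost under quantile normalization (limma, adjusted p = 0.0787). It was also lost with a pseudocount of 0.1 and the eBayes trend (0.0526). KCNK2, a stretch-activated leak channel gene, had 0.11 and 0.07 FPKM in PTP2 and 0.41 and 0.29 FPKM in SCR (adjusted p = 0.0160). Its call was lost without PTP2 replicate 1 (adjusted p = 0.118), PTP2 replicate 2 (0.146) or SCR replicate 1 (0.0708). KCNK6 had 0.24 and 0.37 FPKM in PTP2 and 0.12 and 0.10 FPKM in SCR (adjusted p = 0.0384), and KCNK13 had 0.09 FPKM in each PTP2 library and 0.02 and 0 FPKM in SCR (adjusted p = 0.0423). The values of KCNK13 correspond to about 4 estimated reads in each PTP2 library and about 1 and 0 in SCR. The calls of KCNK6 and KCNK13 were each lost when 1 of several libraries was left out, KCNK6 without PTP2 replicate 2, SCR replicate 1 or SCR replicate 2 and KCNK13 without each of the 4. With all 4 libraries, both calls were also lost with the replicate number as a block (limma, adjusted p = 0.0677 for KCNK6 and 0.0791 for KCNK13).

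**Figure D4:**
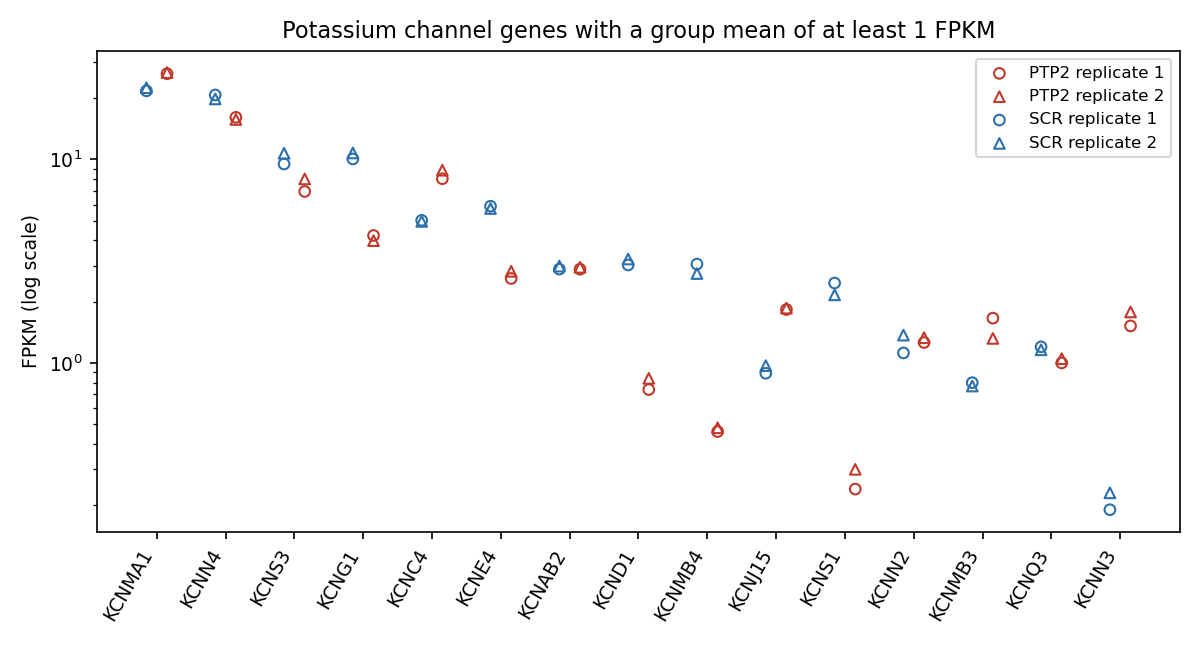
FPKM on a log axis in each library for the potassium channel genes with a group mean of at least 1 FPKM, ordered by the mean over the 4 libraries, with colors for the groups and shapes for the replicate numbers. KCNS1, KCNMB4, KCND1 and KCNN3 show the widest gaps between the groups, while KCNAB2 and KCNN2 overlap.

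Genes that work with potassium channels in ion transport also changed in both directions. Of 31 such genes, 26 had a value, 6 rose and 5 fell (42.3%), beside 57.9% of all genes. ATP1B3, a beta subunit gene of the sodium-potassium pump, rose to 217.71 and 205.95 FPKM from 163.57 and 162.04 FPKM (log2 fold change 0.38, adjusted p = 0.00348). Its call was lost without SCR replicate 1 (adjusted p = 0.0639) or 2 (0.0656). ATP1B1, another beta subunit gene, fell to 22.94 and 24.64 FPKM from 75.16 and 78.23 FPKM, with a log2 fold change of -1.65 ± 0.05 (SE, adjusted p = 3.43e-04).

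HCN2, a hyperpolarization-activated cation channel gene, fell from 43.71 and 41.91 FPKM in SCR to 14.35 and 13.24 FPKM in PTP2, with a log2 fold change of -1.57 ± 0.05 (SE, adjusted p = 3.80e-04). TMEM38B, an intracellular potassium channel gene, rose from 6.12 and 6.58 FPKM to 16.65 and 17.50 FPKM, with a log2 fold change of 1.30 ± 0.05 (SE, adjusted p = 4.43e-04). The potassium-chloride cotransporter gene SLC12A4 fell to 13.46 and 14.64 FPKM from 23.32 and 23.55 FPKM (log2 fold change -0.70, adjusted p = 0.00131). SLC12A2, a sodium-potassium-chloride cotransporter gene, rose from 3.55 and 3.79 FPKM to 5.37 and 5.50 FPKM (log2 fold change 0.46, adjusted p = 0.00206). DPP6 and DPP10, partners of the A-type channels, and the BK gamma subunit genes LRRC26 and LRRC52 had no value.

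Marker genes of other cell types moved in both directions, and some neuronal markers were well expressed. The 12 endothelial markers summed to 4.20 and 4.85 FPKM in PTP2 and 5.08 and 5.03 FPKM in SCR, with ERG, KDR and TEK higher and PECAM1 and VWF lower. The 7 myeloid markers summed to between 5.11 and 5.98 FPKM in PTP2 and between 6.72 and 6.99 FPKM in SCR, with CD14 and CSF1R lower. The 7 neuronal markers summed to between 21.15 and 22.53 FPKM in PTP2 and between 14.74 and 15.47 FPKM in SCR, with SYP and GAD1 higher, SNAP25 and SYT1 lower and RBFOX3 at or below 0.04 FPKM. SYP had 11.13 and 10.12 FPKM in PTP2 and 0.56 and 0.40 FPKM in SCR, a log2 fold change of 2.97, and SNAP25 had 3.63 and 3.98 FPKM in PTP2 and 10.62 and 9.79 FPKM in SCR. GAD1 had 7.04 and 6.32 FPKM in PTP2 and 3.16 and 3.43 FPKM in SCR. Their part in the potassium channel results was not tested.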

How the data were processed

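RNA of U87 cells in 2 PTP2 and 2 SCR libraries was sequenced with single-end reads of 50 bases on a BGISEQ-500, and replicates were not pooled. The authors deposited FPKM values per gene and library in 2 tables, and 0 of 77256 values differed between them. HISAT2 2.1.0 and hg19 are named in the submitters' processing notes with no role, while the gene positions of all 96 genes lie on GRCh38 in GENCODE 29. The counting program is not given in the sources used here. The authors' averages, fold changes and p-values were not used.

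Depth was estimated from the steps that whole reads leave in FPKM, in single-transcript genes of 400 to 1500 bases below 0.6 FPKM. Between 72.1% and 75.2% of these values were whole within 0.005 FPKM, against at most 19.0% by chance. Estimated reads assume the longest transcript listed and cover counting error only.

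The 16595 genes with a value above 0 were tested with limma 3.58.1 (R 4.3.3, lmFit and eBayes defaults) on log2(FPKM + 1) with group as the only term, and Benjamini-Hochberg adjustment ran over all of them. Fold changes understate the change of low genes because of the pseudocount of 1. The script was tested on simulated data. Alternatives were a pseudocount of 0.1, a minimum of 1 FPKM, a replicate block, quantile and median-ratio scaling, the eBayes trend and leaving out each library. Potassium channel genes were named at a mean of at least 3 FPKM, among the 3 highest of a subfamily at 0.5 FPKM or more, past the stricter thresholds, at an absolute log2 fold change of at least 0.8 with 1 FPKM in the higher group, or as genes often studied in glioma or astrocytes, of which the antisense transcript KCNQ1OT1 was not analysed here. Other called genes and genes in the same families were named after their values were seen. Partners were named at 10 FPKM or past the stricter thresholds. Some genes that these rules name are not reported here. The genes and lists were chosen with earlier results of these data known.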

Additional observations from a re-analysis of the deposited data

How the results depend on the processing

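With all 4 libraries, 10 potassium channel genes rose and 14 fell at 0.05. On the log2(FPKM + 1) scale, 1 rose and 4 fell past a fold of 2 and an adjusted p of 0.001. A pseudocount of 0.1 gave 16 higher at 0.05, and of 32 genes called 20 were shared. Of all 16595 genes, it called 9169, beside 9603 in the original fit. A minimum of 1 FPKM in 2 libraries gave 5 higher and 7 lower by construction, since fewer genes were tested. Of all 11480 genes left, 9043 were called. The limma fit with the replicate number as a block called 7 higher and 13 lower at 0.05, all 20 among the original calls. Of all 16595 genes, this fit called 9139. Past the stricter thresholds it called 0 higher and 0 lower, as did the pseudocount of 0.1 and each fit that left out 1 library, and over all genes none of these fits called any, although 10108, 10185 and between 8700 and 8790 genes had an unadjusted p under 0.05. Same-numbered libraries deviated together with a correlation of 0.0635 over 11272 genes. With 2 libraries per group this cannot decide whether the numbers pair them. Fits without 1 library called 3 to 6 genes higher and 8 to 12 lower, and 12 to 14 of the calls in each were shared with the fit of all 4. Quantile normalization, median-ratio scaling, the eBayes trend, and the trend with a pseudocount of 0.1, which was chosen after seeing the data, kept each count within 1.5 times.

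Of 41 named genes under 11 alternatives, 62 values lost their call, 5 gained one (KCNJ10 and KCNJ2 with a pseudocount of 0.1, with and without the trend, and KCNAB3 without SCR replicate 2) and 5 changed sign. The changed signs were KCNAB2 under quantile normalization (log2 fold change 0.082, not called) and without PTP2 replicate 1 (0.004) or SCR replicate 2 (0.011), and KCNAB3 and KCNN2 without SCR replicate 1. Leaving out each library in turn moved KCNAB2 from -0.026 to 0.011, KCNAB3 from -0.021 to 0.186 and KCNN2 from -0.047 to 0.114, and of these values only that of KCNAB3 without SCR replicate 2 (0.186) was called. A fit with 1 library in an arm assumes that it varies like the other group. The cause of the lost calls was not tested.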
